A study of Mus musculus with 10 samples.

Results

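The genes described here are 10 genes of the vascular endothelium and of angiogenesis, measured in epididymal white adipose tissue (eWAT), the fat depot beside the epididymis: the growth factors Vegfa and Vegfb, their receptors Kdr and Flt1, the angiopoietins Angpt1 and Angpt2 and their receptor Tek, the peptide gene Adm, and the endothelial junction genes Pecam1 and Cdh5. Members were taken as all non-control probes whose gene name on the array is one of these 10, which gave 14 probes of 55681, and 10 genes of 34797 gene names. Of the 14 probes, 13 were well above background in the Cy5 channel on at least 5 of the 10 arrays. The exception was the third probe of Flt1, above background on 1 array, for which no level is given. Kdr and Vegfa had 2 probes each, Flt1 had 3, and the other 7 genes had 1 probe.

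All 10 arrays came from a single group of adult male C57BL/6JOlaHsd wildtype mice (the strain field of the labels reads C57BL/6J). These animals received a purified low fat diet for 3 weeks and the BIOCLAIMS high-fat diet for 12 weeks at 29°C, the thermoneutral temperature of the mouse, and were then given the iron chelator DFO (desferrioxamine) every day for 5 days at 100 mg/kg. Food was taken away for 2 h before the mice were killed. RNA of each mouse carried the dye Cy5, while Cy3 marked 1 reference pool, made by the labels from every sample of a wider study, its control mice and these mice included. The values below are log2 ratios of Cy5 over Cy3, so 0 means the level of that pool. Arrays of control mice were not analysed here, the dyes were not swapped, and no ratio was tested against 0, so the values compare the 10 mice with each other and say nothing of DFO against no DFO.

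VEGF ligands act on endothelial cells through the receptor tyrosine kinases Kdr (VEGFR2), which carries most of the growth signal, and Flt1 (VEGFR1), which binds Vegfa tightly and also exists as a soluble decoy. Angpt1 activates the receptor Tek (Tie2) and steadies vessels, whereas Angpt2, made by endothelial cells, often opposes it and accompanies vessel remodelling. Adipocytes are a major source of Vegfa in fat tissue, and Vegfa and Adm are known targets of the hypoxia-inducible factor HIF, whose hydroxylases need iron.

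The probes of the VEGF receptors are shown because their values depended on which probe was read, and that of Tek because it represents the angiopoietin receptor. Each probe is 60 bases long. The first 30 bases are given for Kdr and Flt1 and the whole probe for Tek, as they stand on the array, with no part in capitals. Coordinates are those of the array annotation (mm9).
Kdr probe 1, chr5:76330395-76330454, minus strand: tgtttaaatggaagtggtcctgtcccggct
Kdr probe 2, chr5:76329309-76329368, minus strand: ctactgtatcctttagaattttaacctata
Flt1 probe 1, chr5:148373791-148373850, minus strand: aagtaaagaaaagctatcgggattctctgg
Flt1 probe 2, chr5:148446872-148446931, minus strand: ggagggtactgccgttcctgtgtggtattt
Tek, chr4:94540624-94540683, plus strand: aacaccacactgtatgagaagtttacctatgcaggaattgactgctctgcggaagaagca
The first of 2 or more probes of a gene is the one with the highest mean Cy5 signal, which also stands for the gene where 1 value per gene is needed. Both Kdr probes were designed on the same transcript. The Flt1 probes were designed on different transcripts, and the annotation does not say whether either one serves the soluble form.

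Promoter windows from RefSeq (GRCm38.p6) covering the 250 bases before a transcription start were matched for 6 of the 10 genes, in 7 windows, and not for Pecam1, Cdh5, Angpt1 and Angpt2. Those of Vegfa, Flt1, Kdr and Adm are shown as examples of genes that divided the mice by at least 1 probe, as Vegfb and Tek also did, with the GC box GGGCGG or its reverse CCGCCC, the letters bound by Sp1, in capitals.
Vegfa, chr17:46032378-46032627, minus strand: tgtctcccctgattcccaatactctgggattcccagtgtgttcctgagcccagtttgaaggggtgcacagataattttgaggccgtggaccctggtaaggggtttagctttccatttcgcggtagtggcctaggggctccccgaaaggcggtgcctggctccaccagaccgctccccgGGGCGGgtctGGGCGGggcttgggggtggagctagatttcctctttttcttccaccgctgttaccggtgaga
Flt1, chr5:147726012-147726261, minus strand: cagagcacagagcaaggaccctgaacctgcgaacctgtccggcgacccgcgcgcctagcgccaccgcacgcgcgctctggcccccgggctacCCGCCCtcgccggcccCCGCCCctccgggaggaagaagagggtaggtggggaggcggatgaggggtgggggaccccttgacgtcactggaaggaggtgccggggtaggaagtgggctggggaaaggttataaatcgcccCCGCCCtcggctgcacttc
Kdr, chr5:75978456-75978705, minus strand: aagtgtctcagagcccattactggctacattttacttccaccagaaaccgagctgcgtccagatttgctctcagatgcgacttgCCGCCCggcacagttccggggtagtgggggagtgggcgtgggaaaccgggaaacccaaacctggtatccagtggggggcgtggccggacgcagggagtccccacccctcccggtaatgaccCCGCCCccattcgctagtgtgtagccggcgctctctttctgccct
Adm, chr7:110627407-110627656, plus strand: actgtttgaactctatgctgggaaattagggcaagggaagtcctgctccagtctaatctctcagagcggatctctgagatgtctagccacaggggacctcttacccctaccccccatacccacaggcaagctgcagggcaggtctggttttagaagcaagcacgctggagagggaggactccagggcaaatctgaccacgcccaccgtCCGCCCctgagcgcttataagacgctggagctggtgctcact
A GC box was found in 6 of the 7 windows, with Tek as the exception, and 32.7% of all 32851 RefSeq promoter windows of this length hold one. The HIF core letters ACGTG or CACGT were found in 1 of the 7 windows, a second and internal Vegfa start, against 16.6% of all windows. These matches describe the letters and not a binding site.

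The arrays as a whole divided the mice in a way that touches every value below. Mice 4, 5, 6 and 7 stood apart from the other 6 on the first principal component of 27718 expressed probes, which held 75.1% of the variance (scores of 38.9 to 62.0 against -50.6 to -18.9). Mouse 2 stood alone on the second component, which held 8.80%. No label sets these mice apart, so they are not groups of the study: they are described mouse by mouse, and no mean or test was made between them. The pairs on the slides were mice 1 and 2, 3 and 4, 5 and 6, 7 and 8, and 9 and 10, so the division ran through 2 slides. Median Cy5 signals were 54.8 to 81.3 per array over a median local background of 32 to 37.

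The receptors of VEGF differed strongly between mice by 3 of their 4 expressed probes. Flt1 probe 1 gave log2 ratios of -0.02, -0.47 and -0.21 in mice 1 to 3, of -1.78, -1.64, -1.37 and -1.77 in mice 4 to 7, and of 0.07, 0.07 and 0.08 in mice 8 to 10. Mice 4 to 7 thus held the 4 lowest values, 0.90 below the next mouse, and the whole range was 1.86, a 3.64-fold difference. Flt1 probe 2 gave 0.25, 0.04 and -0.30 in mice 1 to 3, -0.78, -0.80, -0.65 and -0.96 in mice 4 to 7, and 0.72, 0.68 and 0.42 in mice 8 to 10. The order of the 4 lowest mice against the rest was the same with this probe, but the gap was 0.35 and mice 8 and 9 lay well above mouse 1.

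The 2 probes of Kdr disagreed. Kdr probe 2, the mean of 10 spots on each array, gave -0.14, -0.39 and 0.09 in mice 1 to 3, -1.62, -1.34, -1.18 and -1.51 in mice 4 to 7, and 0.05, 0.29 and 0.34 in mice 8 to 10, with a gap of 0.79. Kdr probe 1, a single spot, gave 0.30, 0.02 and 0.68 in mice 1 to 3, 0.10, 0.13, 0.01 and 0.19 in mice 4 to 7, and -0.16, 0.03 and 0.23 in mice 8 to 10. By probe 1 the mice overlapped, mouse 3 was highest and mouse 8 lowest, so a statement on Kdr in these mice depends on the probe. The pool's own SD over the arrays was 0.145 for probe 1 and 0.0285 for probe 2 (log2 Cy3, n = 10 arrays). The G and C content was 55.0% for probe 1 and 35.0% for probe 2, and what sets the probes apart was not tested.

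**Figure D1:**
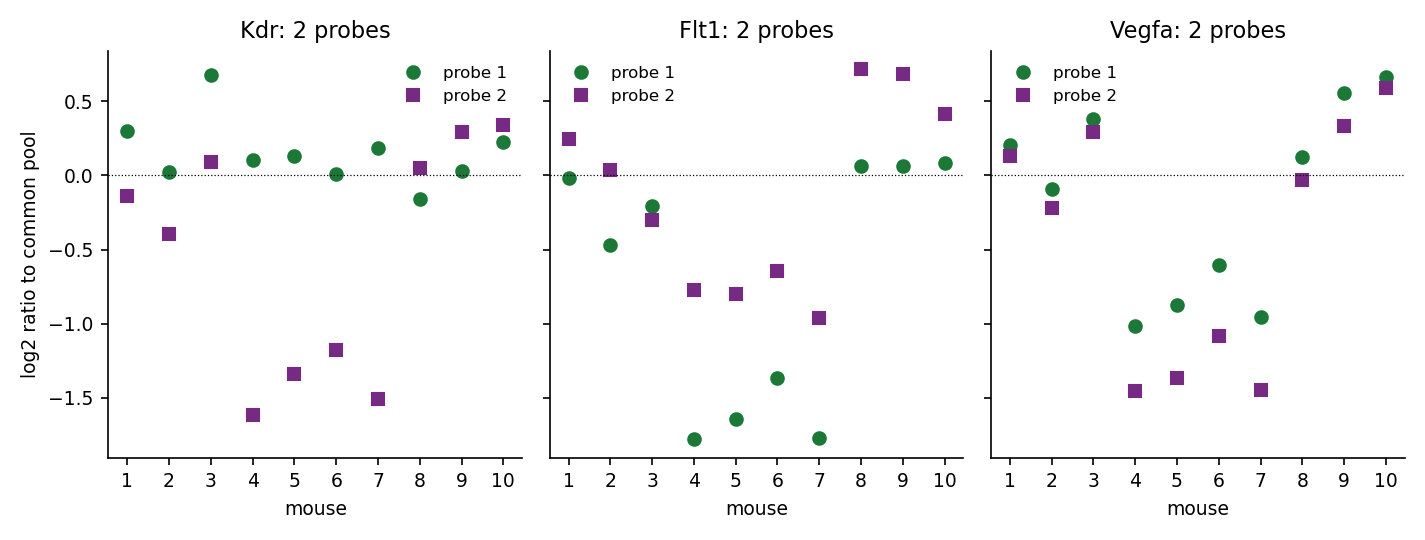
Log2 ratio to the common pool (vertical axis) in mice 1 to 10 (horizontal axis) by the 2 expressed probes of Kdr, Flt1 and Vegfa, with probe 1 as green circles and probe 2 as purple squares. Both probes of Flt1 and of Vegfa put mice 4 to 7 lowest, whereas Kdr probe 1 stayed between -0.16 and 0.68 in all mice while probe 2 fell to -1.62 in mouse 4.

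Tek, the angiopoietin receptor, gave 0.08, -0.30 and -0.11 in mice 1 to 3, -0.71, -0.79, -0.38 and -0.73 in mice 4 to 7, and 0.24, 0.19 and 0.14 in mice 8 to 10. Its gap was only 0.08, since mouse 6 lay close to mouse 2, and with the scanner software's own log ratio these 2 mice overlapped (-0.48 in mouse 6 and -0.52 in mouse 2).

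The junction genes separated the same mice by different amounts. Cdh5, the cadherin that holds endothelial cells together, gave 0.50, -0.07 and 0.39 in mice 1 to 3, -1.38, -0.90, -0.59 and -1.26 in mice 4 to 7, and 0.55, 0.52 and 0.51 in mice 8 to 10. Its range was 1.93, a 3.80-fold difference, and mouse 2 lay below the other 5 mice of the upper set. Pecam1, an adhesion molecule of endothelial cells that platelets and some leukocytes also carry, gave 0.13, -0.01 and -0.12 in mice 1 to 3, -0.45, -0.55, -0.42 and -0.64 in mice 4 to 7, and 0.22, 0.15 and 0.12 in mice 8 to 10. Its range of 0.85, or 1.81-fold, was less than that of Cdh5 on the same arrays, and the gap was 0.30. Raw Cy5 signals were 201 to 637 for Pecam1 and 1010 to 6269 for Cdh5, and the part of the signal level in the smaller range was not tested.

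The ligand genes Vegfa, Vegfb and Adm followed the same division. Vegfa probe 1 gave 0.21, -0.09 and 0.38 in mice 1 to 3, -1.02, -0.87, -0.60 and -0.95 in mice 4 to 7, and 0.12, 0.56 and 0.67 in mice 8 to 10. Vegfa probe 2 gave 0.13, -0.22 and 0.29 in mice 1 to 3, -1.45, -1.37, -1.08 and -1.45 in mice 4 to 7, and -0.03, 0.33 and 0.59 in mice 8 to 10. Both probes put mice 4 to 7 lowest and mouse 10 highest, and the gap was 0.51 by probe 1 and 0.86 by probe 2. Vegfb, which binds Flt1 and not Kdr, gave 0.11, -0.04 and 0.24 in mice 1 to 3, -0.99, -0.97, -0.70 and -0.99 in mice 4 to 7, and 0.41, 0.43 and 0.46 in mice 8 to 10. Adm, which codes for the vasodilator peptide adrenomedullin, gave 0.68, 0.13 and 0.59 in mice 1 to 3, -0.65, -0.68, -0.56 and -0.69 in mice 4 to 7, and 0.46, 0.72 and 0.54 in mice 8 to 10. For Adm, mice 4 to 7 lay close together and 0.69 below the next mouse.

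The angiopoietins ran another way. Angpt2 gave -0.64, -0.56 and -0.59 in mice 1 to 3, 0.43, 0.81, 0.59 and 0.83 in mice 4 to 7, and -0.52, -0.41 and -0.39 in mice 8 to 10. It was the one member with mice 4 to 7 highest, 0.83 above the next mouse, a gap that stayed between 0.76 and 1.08 under the 5 other processings of its values. Angpt1 gave -0.29, 0.51 and -0.19 in mice 1 to 3, 0.11, -0.07, -0.05 and -0.22 in mice 4 to 7, and -0.24, -0.15 and -0.21 in mice 8 to 10. Here the mice overlapped, and mouse 2 alone was high.

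**Figure D2:**
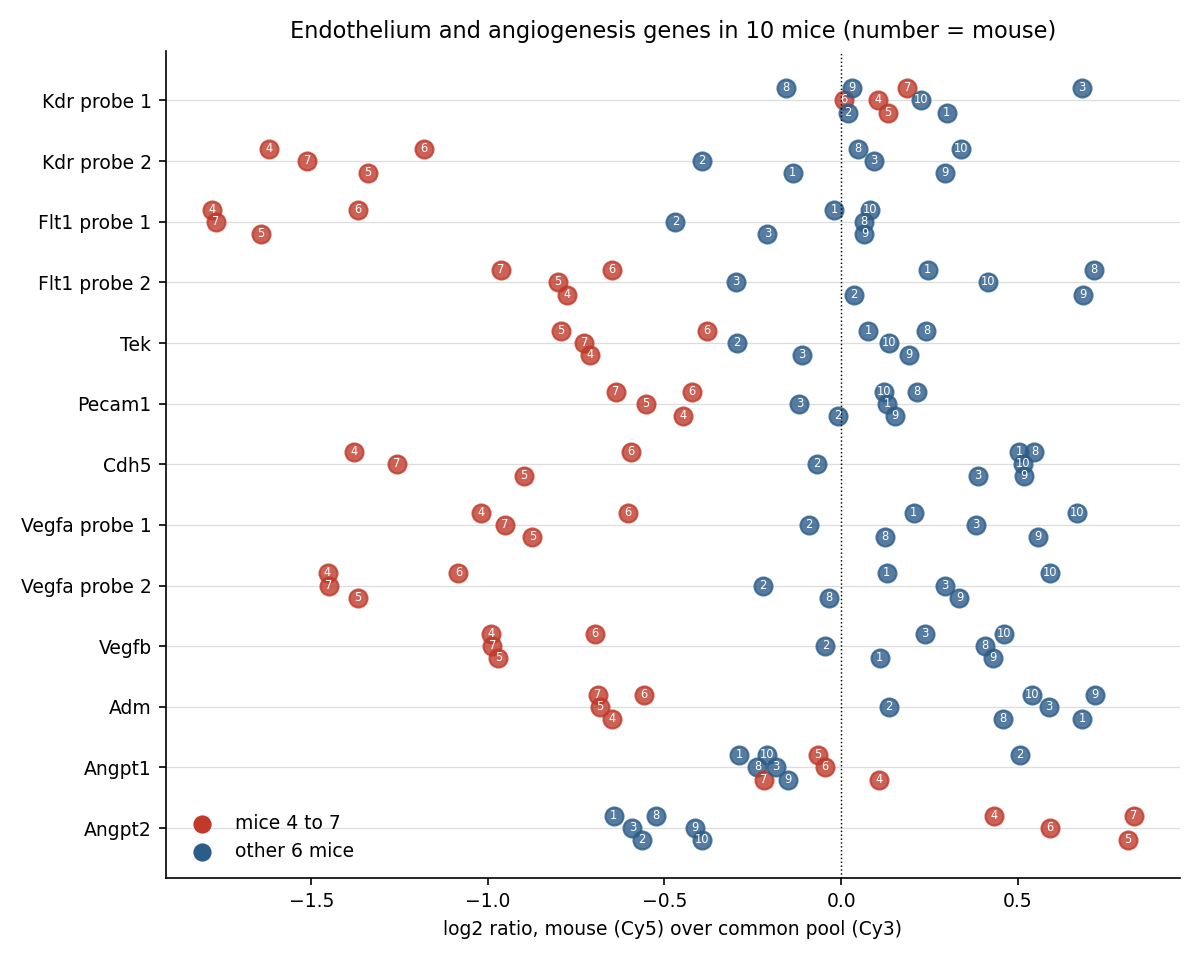
Log2 ratio of each mouse to the common pool (horizontal axis) for the 13 expressed probes of the 10 genes (rows), each dot 1 mouse with its number, mice 4 to 7 in red and the other 6 in blue. Dots are staggered vertically for legibility only. Mice 4 to 7 lie lowest for 10 probes, highest for Angpt2, and among the others for Kdr probe 1 and Angpt1.

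Over the 10 mice, the mean log2 ratio of the members ran from -0.70 ± 0.83 for Flt1 probe 1 to 0.15 ± 0.23 for Kdr probe 1 (SD, n = 10). With 1 probe per gene, mice 4 to 7 lay below all other mice for 7 of the 10 genes (Vegfa, Vegfb, Flt1, Tek, Pecam1, Cdh5 and Adm) and above them for 1, Angpt2. Over all 27718 expressed probes, 21.3% had these mice below the others and 17.9% above. This is a description, since the component that showed the division was computed from all probes, these included. On the slide of mice 3 and 4, mouse 3 was higher than mouse 4 by 1.40 for Vegfa probe 1, 1.57 for Flt1 probe 1 and 1.77 for Cdh5, and the difference for Angpt2 was -1.02 (mouse 3 minus mouse 4). On the slide of mice 7 and 8, mouse 8 was higher than mouse 7 by 1.08, 1.84 and 1.81 for the first 3 of these probes, and the difference for Angpt2 was -1.35. When each array was centred on its median in place of the loess step, only Flt1, Angpt2 and Adm kept the division by the probe that stands for the gene, while the second probes of Vegfa and Kdr, which do not, also kept it with mice 4 to 7 lowest (gaps of -0.55 and -0.28). That scaling moved the median of all expressed probes from 0.00 to 0.32, by array between -0.11 in mouse 3 and 0.47 in mouse 7. Relative to these medians, mice 4 to 7 again lay below for 7 genes and above for 1.

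To see whether the spread between mice exceeded that of the measurement, the variance of log2 Cy5 (10 mice) was compared with that of log2 Cy3 (1 pool on the same 10 arrays) by the Pitman-Morgan test for paired variances. The mice varied more than the pool for 9 of the 10 genes at an adjusted p under 0.05, and so did 59.8% of the 25049 probes tested, so a larger spread was also the common case among all probes. A smaller spread in the mice than in the pool was found for none of the 10 genes and for 0.164% of the probes. Kdr by its probe 1 did not pass (SD 0.257 in Cy5 and 0.145 in Cy3, adjusted p = 0.124), but by probe 2 it did (0.781 and 0.0285, adjusted p = 4.6e-08). The largest Cy5 SD among members was that of Vegfa probe 2 (0.830, with 0.0311 in Cy3, adjusted p = 4.5e-08). Flt1 probe 1 had 0.802 and 0.0756 (adjusted p = 4.27e-06), and Cdh5 had 0.770 and 0.0571 (adjusted p = 1.2e-06). Angpt1 had the smallest Cy5 SD, 0.193 against 0.0751 in Cy3 (adjusted p = 0.0179). Its raw Cy5 signals were low, 100 to 261 where those of Cdh5 were 1010 to 6269. The SD of the log ratio was 0.236 for Angpt1 and 0.226 for Kdr probe 1, and by the scanner's own ratio 0.384 and 0.203. The smallest spread thus depended on the measure, with Angpt1 smallest in the Cy5 SD and Kdr probe 1 in the SD of either ratio. The part of the signal level was not tested. The median SD over all probes tested was 0.199 in Cy5 and 0.0812 in Cy3, and the Cy5 SD of each member probe but that of Angpt1 was above it. The pool is 1 RNA mix that was always in Cy3, so noise particular to the Cy5 dye is not separated from differences between mice. Without normalization between arrays 4675 probes and 7 of the 10 genes passed.

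**Figure D3:**
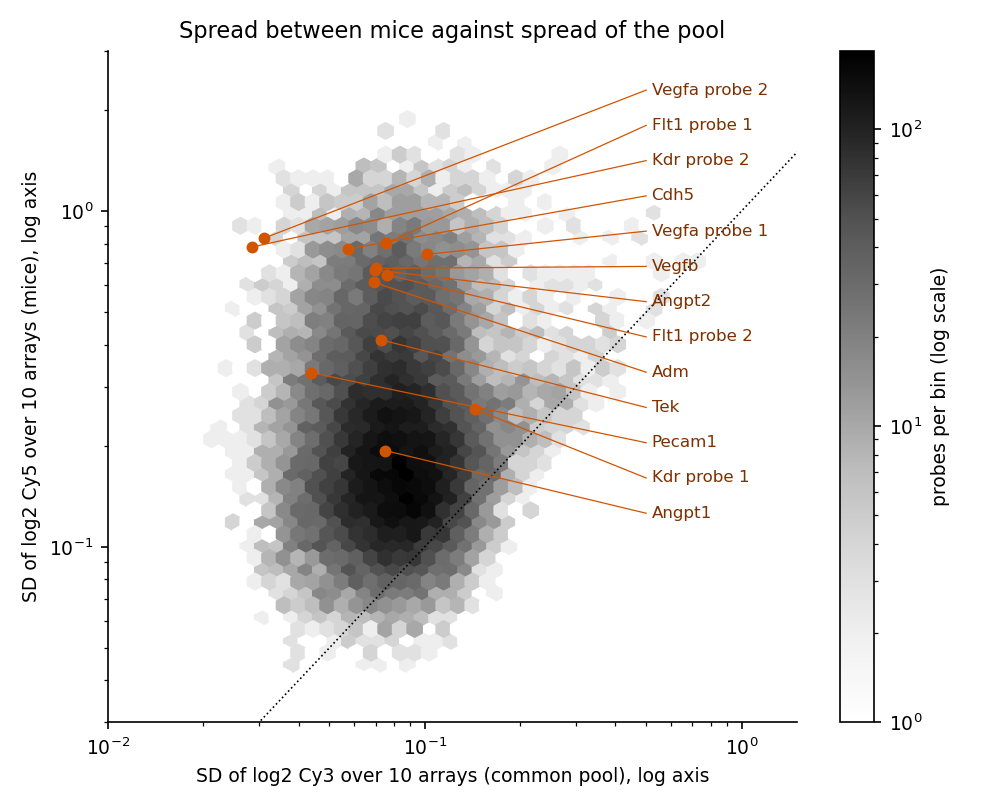
SD of log2 Cy5 over the 10 mice (vertical log axis) against SD of log2 Cy3, the same pool on the 10 arrays (horizontal log axis), with 25049 probes as grey bins and the 13 member probes as orange points joined to their names. The dotted line marks equal SDs, and Vegfa probe 2 and Kdr probe 2 lie farthest from it, with Cy5 SDs of 0.830 and 0.781 against Cy3 SDs of 0.0311 and 0.0285.

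Slide was tested as the one batch that the files give, by the limma moderated F test: 0 of the 27718 expressed probes passed (1137 at an unadjusted p under 0.05), a background of 0%. The lowest limma adjusted p of a member probe was 0.697 (unadjusted p = 0.125). With 2 arrays per slide, the test has little power for small slide effects. The division of the mice also ran through slides, and the test over slides holds no term for it. For probes that divided the mice, the differences within those slides count as error, so large slide effects could be missed as well. The lack of passing probes therefore does not show that slide had no effect.

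The relation of the other genes to Cdh5 was read over the 6 mice on one side of the first component, because the 10 mice formed separate clusters. These 6 do not form a tight cluster: mouse 2 scored -43.9 on the second component and the other 5 scored 3.92 to 10.1. When mice 2 and 3, the farthest from the median of Cdh5, are set aside, the other 4 have Cdh5 ratios of 0.50 to 0.55, a span below the pool's SD for that probe (0.0571), so their order in Cdh5 is within the measurement error and the relations to Cdh5 rest on mice 2 and 3. For Tek r was 0.915 (exact permutation p = 0.00139, the smallest that 6 mice can give) and rho was 1.00. Flt1 probe 1 had r = 0.955 (exact permutation p = 0.00833) and rho = 0.771, and without mice 2 and 3 r was 0.505. Vegfb had r = 0.798 (exact permutation p = 0.0417), Adm 0.855 (0.0958), Kdr probe 2 0.770 (0.0778), Vegfa probe 1 0.653 (0.146) and Pecam1 0.571 (0.243), each exact over the 6 mice. Pecam1 had a rank correlation of 0.886 (exact permutation p = 0.0333). Without mice 2 and 3, r was 0.495 for Vegfb, 0.0222 for Kdr probe 2 and 0.952 for Pecam1, and it turned negative for Adm (-0.762) and Vegfa (-0.440). Leaving out mouse 2 alone also turned Adm (-0.147) and Vegfa (-0.101). Kdr probe 1 had r = 0.0550 (exact permutation p = 0.901), which became -0.933 without mouse 2, so its value too depended on that mouse. For Angpt2 r was 0.296 (exact permutation p = 0.653).

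In the limma fit over all 27739 expressed probes of other genes, 0.389% rose with Cdh5 and 1.98% fell as it rose at an adjusted p under 0.05. Of the members only Angpt1 passed, with a negative slope of -1.22 ± 0.21 (SE, log2 per log2, limma adjusted p = 0.0149, r = -0.970). Its exact permutation p was 0.0556 and rho was -0.429. This relation rested on mouse 2, which had the highest Angpt1 and the lowest Cdh5 of the 6: without it r was -0.271, and 1 probe of any gene (Ccdc13, named after its values were seen) passed in place of 657, so each call with Cdh5 given below for a gene of another list is lost without mouse 2. Flt1 probe 1 (limma adjusted p = 0.0670) and Tek (limma adjusted p = 0.122) did not pass. Mouse 2 also had the highest mean log2 ratio of 3 motile cilia genes (1.29, with -1.03 to -0.29 in the other 9 mice), and the part of this in the relations to Cdh5 was not tested.

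**Figure D4:**
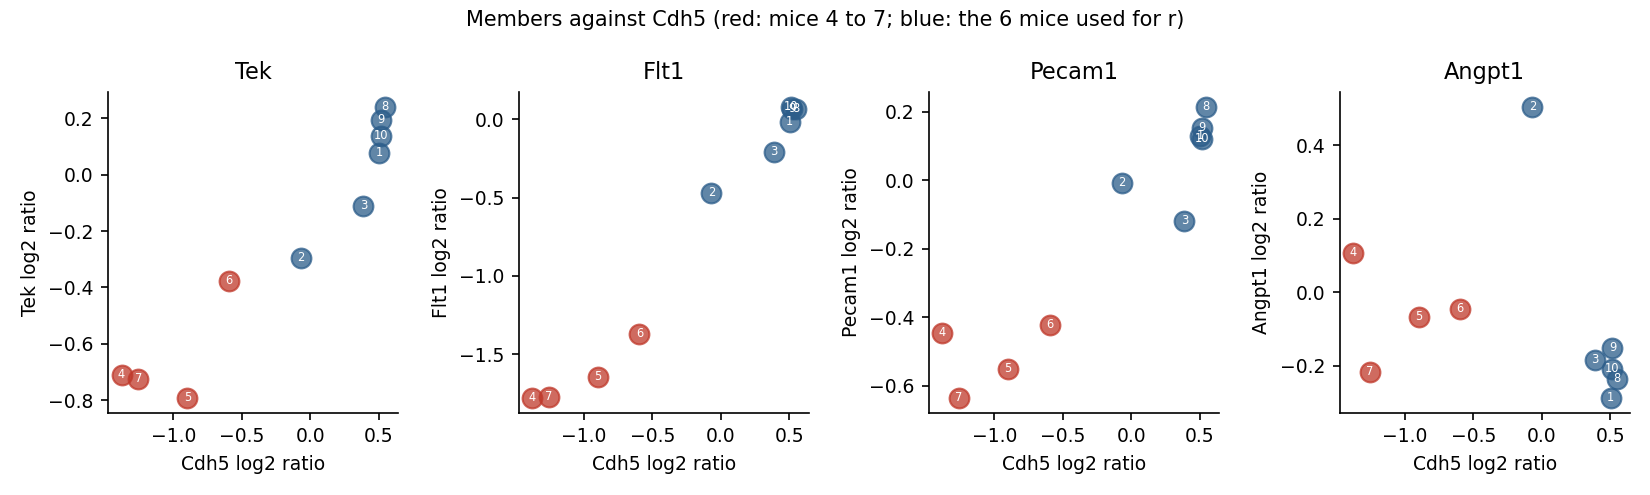
Log2 ratio of Tek, Flt1 probe 1, Pecam1 and Angpt1 (vertical axes) against that of Cdh5 (horizontal axes), each dot 1 mouse with its number, in red for mice 4 to 7 and in blue for the 6 mice over which r was computed. In the Tek panel r over the blue dots was 0.915, with 4 of them between 0.50 and 0.55 in Cdh5, and in the Angpt1 panel mouse 2 alone lies away from the other 5 blue dots.

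With Vegfa probe 1 as the reference, 0 of 27738 probes passed in the limma fit (0% in either direction, and 3284 at an unadjusted p under 0.05). Kdr probe 2 came nearest among the members, with r = 0.938 (exact permutation p = 0.00833, limma adjusted p = 0.288), rho = 0.943, and r = 0.805 without mice 2 and 10. Vegfb had r = 0.772 (exact permutation p = 0.0722), Adm 0.705 (0.101), Angpt2 0.691 (0.135), Flt1 probe 1 0.667 (0.156) and Tek 0.531 (0.292), each exact over the 6 mice. Without mice 2 and 10, r was 0.310 for Vegfb, 0.683 for Adm and 0.618 for Angpt2, and it turned negative for Flt1 probe 1 (-0.110) and Tek (-0.179). In all, 23 relations covering 17 pairs of genes were computed for the members. The genes most like Cdh5 over the 6 mice by r were Fat4 (0.995), Grcc10 (0.993), Mbtd1 (0.991) and Ttl (0.990), and those most like Vegfa were Vstm2b (0.998), Ivd (0.993), Pde5a (0.989), Vpreb2 (0.988) and Rbms1 (0.981). None of these 9 passed the adjusted threshold.

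Most other endothelial markers divided the mice as Cdh5 did. Of 24 such genes 23 were expressed, and mice 4 to 7 lay lowest for 19 of them (against 21.3% of all expressed probes), highest for Cd93 (against 17.9%), and among the others for Eng, Plvap and Clec14a (these 4 named after their values were seen). The median gap over the 23 genes was -0.66, against 0 over all expressed probes, and 21 of 23 varied more between mice than in the pool (against 59.8% of all probes). The lowest ratio of the list was that of the tight junction gene Cldn5, between -2.14 and -1.46 in mice 4 to 7 and between -0.34 and 0.41 in the other 6. The highest was that of the nitric oxide synthase Nos3, up to 0.87 in those 6 and -1.61 to -0.59 in mice 4 to 7. Over the 6 mice, Cldn5 (r = 0.958, limma adjusted p = 0.0270) and Gpihbp1, which carries lipoprotein lipase to the capillary wall (r = 0.958, limma adjusted p = 0.0146), passed with Cdh5, 2 of the 23 against 0.389% of all probes. Without mouse 2 neither passed (r = 0.695 and 0.379, limma adjusted p of 0.449 and 0.762). Other genes of the list ran against Cdh5 over the 6 mice without passing, with r of -0.804 for Clec14a, -0.740 for Plvap and -0.643 for Vwf, the gene of von Willebrand factor (these 3 named after their values were seen). The median r with Cdh5 was 0.726 over the 23 genes, and it was 0.800 over 7 adipocyte markers, of which Plin1 and Fabp4 passed, 0.857 over 6 mesothelial markers, of which 3 rose and 1 fell, and -0.0443 over all expressed probes, so high correlations with Cdh5 were also found outside the endothelial list. Of 7 lymphatic endothelial markers, Lyve1 and Pdpn were expressed, while Prox1 was well above background on 1 array and Mmrn1 and Reln on none. In whole tissue, fewer cells of a type and less RNA per cell cannot be told apart.

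Mural cell genes, which mark pericytes and smooth muscle, were lowest in mice 4 to 7 for 8 of 10 genes (against 21.3% of all expressed probes), with a median gap of -0.71. The extreme gene was the smooth muscle myosin Myh11, at -1.84 to -1.50 in mice 4 to 7 and at 1.29 in mouse 2, and Myh11 (r = -0.889) and Tagln (r = -0.915) fell as Cdh5 rose over the 6 mice (limma adjusted p of 0.0194 and 0.0153), 2 of 10 genes against 1.98% of all probes. Without mouse 2 neither passed, and r turned to 0.286 and 0.396 (limma adjusted p of 0.739 and 0.695). Of the angiopoietin-Tie genes, all 4 expressed ones, Tie1, Ptprb, Svep1 and Foxo1, were lowest in mice 4 to 7 (against 21.3% of all expressed probes). Their median gap was -0.76. The widest was the phosphatase gene Ptprb, which restrains Tek, at -1.86 to -1.38 in mice 4 to 7 and -0.15 to 0.59 in the others. Tie1 and Ptprb are also on the endothelial list. The ligand Angpt2 lay highest in the mice in which these 4 genes lay lowest, and 17.9% of all expressed probes were also highest there. A link between Angpt2 and these genes was not tested. The receptor Tek lay lowest in those mice by a gap of only 0.08, which was 0 by the scanner ratio and with median centring.

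The other genes of the VEGF ligand and co-receptor list were mixed. Of 6 expressed, Vegfc and Figf were lowest in mice 4 to 7, as was Nrarp, a Notch-regulated gene that the list holds although it is neither ligand nor co-receptor. The co-receptor gene Nrp2 was highest in those mice (0.28 to 0.79, with -0.83 to -0.35 in the other 6), and Pgf and Nrp1 overlapped. Vegfc had the lowest ratios, -1.23 to -0.69 in mice 4 to 7. Flt4 was well above background on 3 arrays and was not counted. Among all expressed probes, 21.3% were lowest and 17.9% highest in mice 4 to 7, so 1 of 6 genes highest is near that share. The same shares apply to the adrenomedullin receptor genes, of which 5 were expressed. Of the adrenomedullin receptor genes, Ramp2 was lowest in mice 4 to 7 (-1.29 to -0.67, with 0.12 to 0.40 in the others), as was Gpr182, and Calcrl, the receptor chain that Ramp2 partners, was highest there (0.35 to 0.66, with -0.20 to 0.11). Ramp1 and Ramp3 overlapped, and both fell as Cdh5 rose over the 6 mice (r = -0.972 and -0.974, limma adjusted p of 0.00220 and 0.000217). These were 2 of the 5 expressed genes, against 1.98% of all probes. Ramp3 was at 1.82 in mouse 2. Without that mouse neither Ramp1 nor Ramp3 passed (r = -0.916 and -0.298, limma adjusted p of 0.179 and 0.815).

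Of 12 expressed tip cell and Notch genes, 6 were lowest and 2, Cxcr4 and Pdgfb, highest in mice 4 to 7 (against 21.3% and 17.9% of all expressed probes), with a median gap of -0.00459. The Notch ligand Dll4 rose with Cdh5 over the 6 mice (r = 0.944, limma adjusted p = 0.0406), but not without mouse 2 (r = 0.723, limma adjusted p = 0.395). The lowest ratio was that of Apln, the apelin peptide, at -1.36 to -1.11 in mice 4 to 7 and at -1.28 in mouse 2, and the highest that of Notch1, 0.58 among the other 6. Of 8 angiogenesis inhibitors, 5 were lowest in mice 4 to 7 and none highest (against 21.3% and 17.9%), with a median gap of -0.07. Thbs1, the matrix protein thrombospondin, spanned the list from -2.20 in mice 4 to 7 to 0.80.

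HIF target genes did not share a direction. Of 19 expressed, 6 were lowest in mice 4 to 7 (Bnip3, Ndrg1, Hk2, Pfkfb3, P4ha2 and Higd1a), 5 were highest there (Car9, Slc2a1, Pdk1, Pgk1 and P4ha1), and 8 overlapped, with a median gap of 0. Over all expressed probes 21.3% were lowest and 17.9% highest there. The glucose transporter Slc2a1 reached the highest ratios, 0.91 to 1.44 in mice 4 to 7 and -0.47 to 0.48 in the other 6. The glycolytic regulator Pfkfb3 had the lowest, -2.03 to -0.75 against -0.12 to 0.77. Vegfa and Adm, members and HIF targets as well, lay with the first set.

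Markers of other cells of the fat pad moved with the same mice. The shares over all expressed probes were 21.3% lowest and 17.9% highest in mice 4 to 7. All 7 adipocyte markers were lowest in mice 4 to 7, with a mean log2 ratio over the list of -2.46 to -1.39 there and of -0.19 to 0.61 in the other 6. The adipokine Cfd (adipsin) ran from -4.69 to -3.36 in mice 4 to 7 and from -0.70 to 1.44 in the others. All 7 macrophage markers were highest in mice 4 to 7, with means of 0.78 to 1.05 against -1.24 to -0.04, and with Trem2 at 1.10 to 1.52 there and at -2.43 to 0.09 in the others. Of the 6 mesothelial markers 3 were lowest in mice 4 to 7, and the list means there were -1.52 to -1.05 against -0.52 to 0.33. The 5 fibroblast markers were mixed, with 1 lowest and 2 highest, too few genes to be set apart from the shares over all probes. Of 4 expressed blood markers, 3 were lowest, with means of -1.63 to -0.99 against -0.66 to 0.39. The list means of adipocytes thus divided the mice in the direction of Vegfa, Flt1 and Cdh5, as those of mesothelium and blood also did. Those of macrophages divided the same mice in the opposite direction, and Angpt2 lay on the side of the macrophage markers. The part of these cell types in the values of the members was not tested. The mean of the 10 members ran from -0.63 to -0.41 in mice 4 to 7 and from -0.09 to 0.21 in the others, and that of the 23 endothelial markers from -1.06 to -0.73 and from -0.06 to 0.24.

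**Figure D5:**
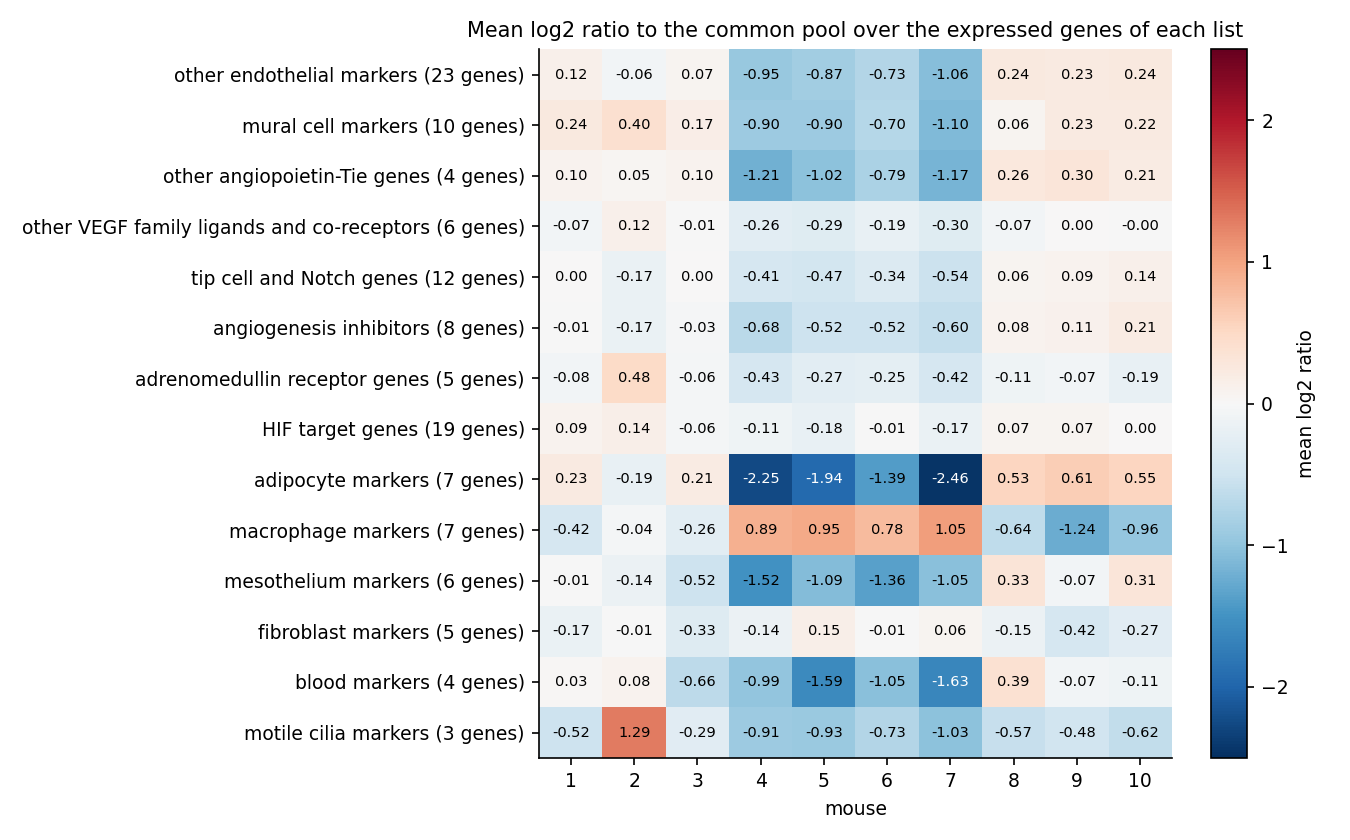
Mean log2 ratio to the common pool over the expressed genes of 14 lists (rows, number of genes in brackets) in each of the 10 mice (columns), in blue below and red above 0 with the value printed. In mice 4 to 7 the adipocyte means lie between -2.46 and -1.39, the macrophage means between 0.78 and 1.05 and the endothelial means between -1.06 and -0.73, and in mouse 2 the cilia mean is 1.29.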

How the data were processed

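Epididymal WAT of 10 mice of 1 group was measured on 10 two-colour Agilent arrays, with Cy5 for the mouse and Cy3 for a common pool. The authors deposited scanner files of Agilent Feature Extraction 10.7.3.1 with unnormalized spot intensity and its own log10 ratio, and also normalized values of 30733 spots, log2 by their fit to the arrays (r of 0.994 to 0.999 with log2 Cy5), with its centring not stated. From the mean intensity and median local background, ratios were computed with limma 3.58.1 in R 4.3.3 (normexp with offset 50, loess with control spots at weight 0, Aquantile). Outlier spots were left out and spots of 1 probe averaged. The arrays' number and the signal over background limit the precision. Expressed probes were well above background in Cy5 on at least 5 of 10 arrays. Tests were Pitman-Morgan (both channels), the limma F over slides and limma slopes on Cdh5 and Vegfa, with Benjamini-Hochberg adjustment over all probes, and exact permutation over 6 mice (Python 3). The tests were checked on simulated data, which need not share the division of these mice or their outlying mouse. Exact p-values give the share of reorderings of the 6 mice with a correlation at least as strong, and they concern these mice only. Members and gene lists were chosen with earlier results of these data known. All members are named, and list genes where they passed, were extreme or decided a count. Alternatives covered background, loess, filters, scanner and deposited values, slide, and mice left out. A gene that the rule on likeness names and a probe sequence are not reported here.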

Additional observations from a re-analysis of the deposited data

Results flagged for a closer look

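In 4 of 30 sets of 10 values scanned, the gap between the extreme mouse and its nearest neighbour was a larger part of the whole range than the critical value of Dixon's test allows. Chance flags about 1 set in 20. The mouse was mouse 2 in each. For Angpt1 the ratio was 0.502, with mouse 2 at 0.51 and the next, mouse 4, at 0.11. For the mean of the 5 expressed adrenomedullin receptor genes it was 0.590, with mouse 2 at 0.48 and the other 9 mice between -0.43 and -0.06. For the mean of 3 expressed epididymis and sperm markers it was 0.519, with mouse 2 at -0.75 and the others between -2.17 and -1.48. For the mean of 3 expressed motile cilia markers it was 0.679, with mouse 2 at 1.29 and the others between -1.03 and -0.29. No member other than Angpt1 passed this criterion.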

How the results depend on the processing

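The spread between mice exceeded that of the pool for 7 to 9 of the 10 genes under the alternatives of processing, and for 8 to 10 with each mouse left out. The number of probes was 4675 without normalization between arrays, against 14973, and 13516 to 14415 with a mouse left out. Slide passed for 0 probes in each setting, with 2713 at an unadjusted p under 0.05 after median centring and 2440 without a filter. With Cdh5, 657 probes and 1 member passed. These were 5006 and 6 with median centring, 1400 and 2 without a filter, 0 and 0 with the scanner ratio, 230 and 0 with the deposited values, 230 and 0 with log2 Cy5, and 13602 and 7 over all 10 mice. A filter on all 10 arrays gave 437 probes. With 1 of the 6 mice left out they were 1 (without mouse 2) to 842, and 0 to 2 members. With Vegfa, 0 passed except over all 10 mice (13779 probes, 7 members) and without mouse 8 (3 probes), so leaving out a mouse gave 0 to 3. Correlations that changed sign with Cdh5 were those of Angpt1 with median centring (0.00841), Kdr probe 1 with the scanner ratio (-0.135) and log2 Cy5 (-0.0932), and Angpt2 over all 10 mice (-0.903). With a mouse left out, Vegfa ran from -0.101 to 0.831, Kdr from -0.933 to 0.291 and Adm from -0.147 to 0.954, each lowest without mouse 2. With Vegfa, Angpt1 turned to 0.110 with median centring and Angpt2 to -0.884 over all 10 mice, and with a mouse left out Tek ran from -0.0493 to 0.825, Pecam1 from -0.172 to 0.402, Cdh5 from -0.101 to 0.831 and Angpt1 from -0.739 to 0.662. The division of mice 4 to 7 from the others, examined after the data were seen, held for 8 genes and for 3 with median centring, and for 7 to 9 under the other settings. Of 262 single-gene values under alternatives other than leaving out 1 mouse, 222 kept their call and direction or moved by under 1 SD. Part of this count was fixed in advance, since filters and slide blocking leave r unchanged, and averaging probes leaves genes with 1 probe unchanged. A value that never passed also counts as kept when its r moved, as for Angpt2 with Cdh5 (0.296, and 0.833 with median centring). The causes of the changes were not tested. Mice could not be paired between groups because the labels give 1 group. The only pairing used in a test was that of the 2 dyes of each array, in the Pitman-Morgan test.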
